A study of Mus musculus with 18 samples.

Results

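The ATP-binding cassette (ABC) genes of mouse blood stem and progenitor cells were examined on 18 expression arrays. They were taken as every gene of the array whose symbol begins with Abc, a subfamily letter from a to g and a number, which gave 48 genes, each with 1 probe set, among the 19505 named genes measured. The study sorted 3 populations by surface proteins, long-term haematopoietic stem cells (LT-HSC), short-term stem cells (ST-HSC) and multipotent progenitors (MPP), from adult bone marrow (BM) and from fetal liver (FL), with 3 arrays in each of the 6 groups. BM came from C57Bl/6J adults aged 3 to 12 months and FL from C57Bl/6J embryos at E13.5. All populations were Lin-, Sca-1+ and Kit+ cells divided by Cd150 and Cd48, and 2 ng of RNA with 10 cycles of amplification went on a Clariom S array, which reads 1 level per gene. The free-text descriptions disagree with the other labels: they speak of transplanted marrow and name a guide against Ezh2 on 4 FL arrays (MPP a, MPP b, ST-HSC a and LT-HSC a), so titles and source names were used, and calls lost without these 4 arrays are given.

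ABC transporters are membrane proteins that use ATP to move drugs, lipids, peptides, haem products or ions across a membrane. Abcg2 pumps dyes and drugs out of blood stem cells and gives them the side population phenotype, and Abcb1a and Abcb1b encode the mouse forms of the P-glycoprotein drug pump. The E and F subfamilies keep the ATP-binding domains but have no membrane part, and act on ribosomes.

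The sequences below are the 250 bases before the annotated start of 4 ABC genes that differed between BM and FL. They are from RefSeq on GRCm38.p6, read 5′ to 3′ on the gene's strand. Abcb1a and Abcb1b are shown because they differed most between BM and FL. Abcf2 and Abce1 are soluble ATPases that differed the other way. Abcb8 is not shown, although it was lower in BM by more than Abce1 (-0.47 against -0.43 log2). Capitals mark matches, on either strand, to the TATA box TATAAA, the CCAAT box, the GC box GGGCGG, the AP-1 site TGANTCA, the hypoxia factor core ACGTG or the aryl hydrocarbon receptor core GCGTG. The last pair share the letters CGTG and differ in the base before them.
Abcb1a, chr5:8566841-8567090, plus strand: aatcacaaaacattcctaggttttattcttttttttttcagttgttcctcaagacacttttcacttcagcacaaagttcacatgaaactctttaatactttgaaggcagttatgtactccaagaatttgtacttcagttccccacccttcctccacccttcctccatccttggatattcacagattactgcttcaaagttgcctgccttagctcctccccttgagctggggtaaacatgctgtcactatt
Abcb1b, chr5:8797897-8798146, plus strand: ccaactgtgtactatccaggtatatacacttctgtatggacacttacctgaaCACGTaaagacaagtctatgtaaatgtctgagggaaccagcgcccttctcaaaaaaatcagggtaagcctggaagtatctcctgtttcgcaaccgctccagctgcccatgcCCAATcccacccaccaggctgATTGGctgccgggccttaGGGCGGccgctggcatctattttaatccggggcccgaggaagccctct
Abcf2, first of 2 annotated starts, chr5:24577468-24577717, minus strand: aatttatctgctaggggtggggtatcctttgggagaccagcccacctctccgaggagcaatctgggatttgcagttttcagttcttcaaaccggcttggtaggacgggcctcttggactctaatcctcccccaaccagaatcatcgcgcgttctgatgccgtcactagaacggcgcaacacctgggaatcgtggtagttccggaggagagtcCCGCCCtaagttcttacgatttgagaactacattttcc
Abce1, chr8:79711741-79711990, minus strand: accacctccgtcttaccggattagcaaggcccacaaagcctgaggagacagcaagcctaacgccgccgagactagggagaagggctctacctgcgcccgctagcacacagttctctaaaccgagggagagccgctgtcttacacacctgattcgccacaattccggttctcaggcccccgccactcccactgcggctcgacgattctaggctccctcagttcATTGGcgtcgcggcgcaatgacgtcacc
The Abcb1b stretch held 2 CCAAT boxes, 1 GGGCGG and 1 ACGTG, with 52.8% G and C, while the Abcb1a stretch held no match and 40.4% G and C. Abcf2 had 1 GGGCGG and Abce1 had 1 CCAAT. Over all 32851 windows of this length in the RefSeq table, CCAAT was present in 33.9%, the GC box in 32.7%, the hypoxia factor core in 16.6%, the aryl hydrocarbon receptor core in 28.2%, the TATA box in 12.4% and the AP-1 site in 6.75%. A match describes letters only, not a bound site.

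Of the defining markers, Kit, Slamf1 and Cd48 were read. Ly6a, which encodes Sca-1, was not among the named genes measured. Kit, the stem cell factor receptor, averaged 13.15 ± 0.15 in BM and 13.19 ± 0.11 in FL (log2 signal, SD, n = 9 each). Slamf1, which encodes Cd150, averaged 9.66, 8.04 and 7.25 in LT-HSC, ST-HSC and MPP of BM and 9.31, 7.49 and 6.71 in those of FL. The third BM LT-HSC array (c) stood apart. Cd48, which these cells are sorted to lack, read 11.40 there against 9.58 and 9.98 on the other BM LT-HSC arrays. Summed erythroid, T and NK, hepatocyte and endothelial markers were highest on other BM arrays. BM LT-HSC c had the highest BM sums of neutrophil (16.11), B cell (12.81), macrophage (11.84), stromal (12.64) and megakaryocyte and platelet markers (13.15). It is also 1 of 4 arrays with a narrow spread of signals (with BM ST-HSC b and c and FL LT-HSC b). The main changes without these arrays are given beside the results. Only BM ST-HSC a then remains in its group, also for averages over the populations, and its spread is taken from the other groups. Summed neutrophil markers were higher in BM, at 14.60 to 16.11 against 9.97 to 11.99 in FL (log2 of the summed signal, 8 of 8 markers higher). B cell markers summed to 10.66 to 12.81 in BM and 9.86 to 11.06 in FL, although Cd79b averaged 9.09 and 9.14. T and NK markers summed to 10.39 to 11.92 in BM and 8.83 to 10.88 in FL, although Klrd1 averaged 6.37 and 6.41. Hepatocyte markers summed to 10.62 to 11.42 in BM and 10.95 to 13.14 in FL, highest on FL LT-HSC c. Among them Alb, the albumin gene, averaged 6.85 in BM and 9.56 in FL. Serpina1a averaged 7.37 in BM and 7.45 in FL, and Trf went the other way, at 10.36 in BM and 10.01 in FL. FL LT-HSC c also had the highest erythroid sum in FL, at 12.05. The Y-linked gene Kdm5d averaged 4.55 in BM and 7.50 in FL. Their part in the BM and FL differences was not tested, and tissue, age, sex and any processing batch cannot be told apart between the sources.

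Averaged over the 3 populations, 10 of the 48 ABC genes differed between BM and FL (limma, p adjusted by Benjamini-Hochberg across the 19505 genes, threshold 0.05), which is 20.8% of them, while 25.1% of all genes did. The 4 that were higher in BM, against 9.26% of all genes, were both P-glycoprotein genes, Abcc4 and Abcc5. The 6 that were lower, against 15.9% of all genes, were Abcf2, Abcb8, Abce1, Abca15, Abcf1 and Abca12. The median difference was 0.05 log2 over the ABC genes and -0.01 over all genes. Of the 10, only Abcb1a and Abcb1b differed by at least 2-fold, a size that 2.27% of all genes reached. In bulk RNA, fewer cells of a type and less RNA per cell cannot be told apart.

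**Figure D1:**
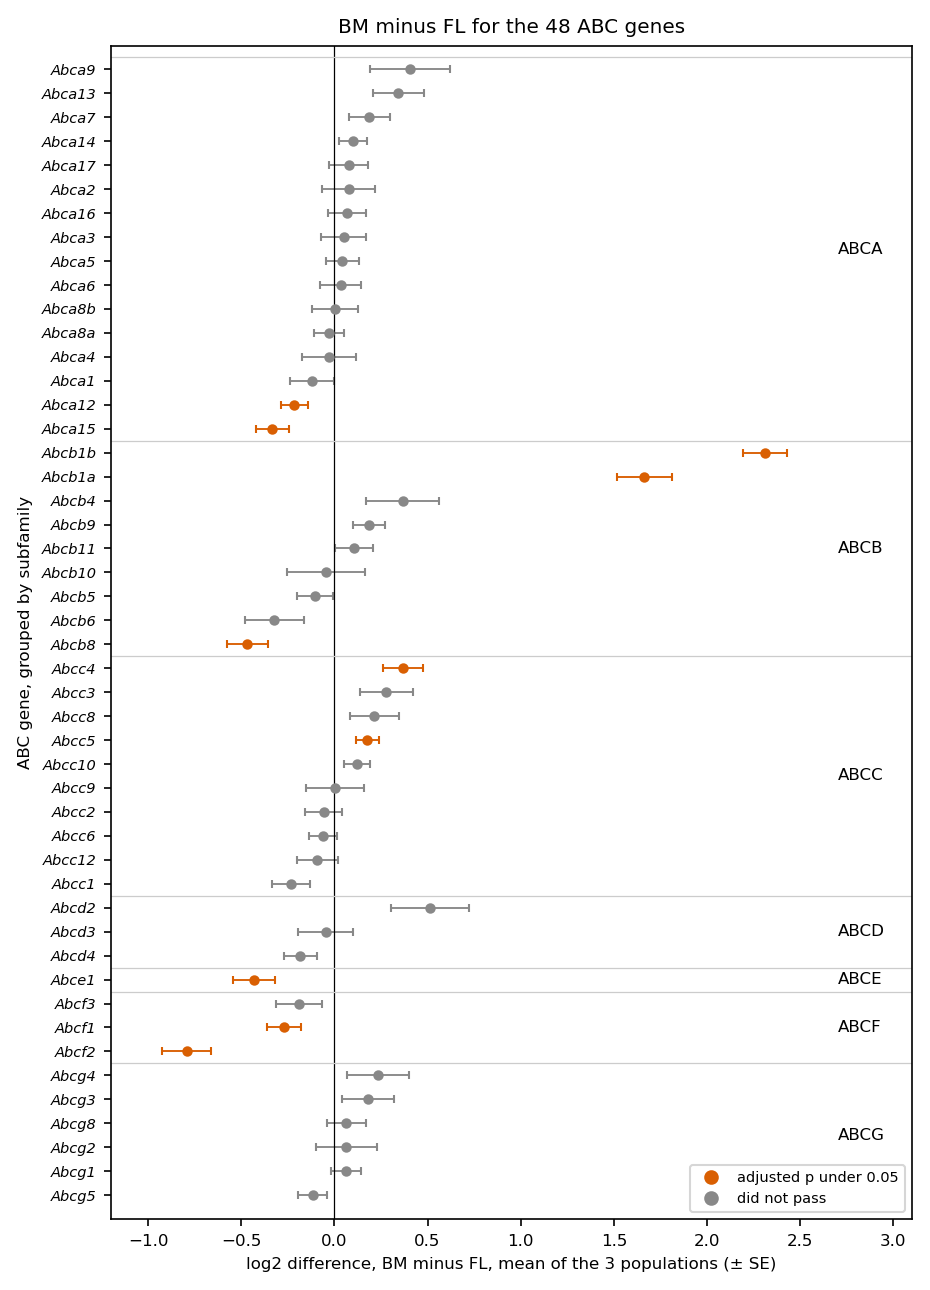
Difference between BM and FL (log2, averaged over the 3 populations, with its standard error) for each of the 48 ABC genes. Abcb1b at 2.31 and Abcb1a at 1.66 lie far to the higher side, and Abcf2 at -0.79 is the lowest.

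Abcb1b, 1 of the P-glycoprotein genes, was the ABC gene that differed most. It read 9.81, 9.66 and 8.73 in BM LT-HSC, 9.43, 9.26 and 9.40 in BM ST-HSC and 9.86, 9.74 and 9.84 in BM MPP. In FL it read 6.55, 6.66 and 6.41 in LT-HSC, 6.72, 6.91 and 6.61 in ST-HSC and 8.52, 8.18 and 8.36 in MPP. Every BM array lay above every FL array, and the FL stem cell arrays were far below the FL MPP arrays. Over the 3 populations Abcb1b was 4.96-fold higher in BM (2.31 ± 0.12 log2, SE, limma adjusted p = 8.58e-11). By population it was 7.27-fold higher in LT-HSC (adjusted p = 3.93e-08), 6.11-fold in ST-HSC (9.71e-08) and 2.75-fold in MPP (0.000115).

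The second P-glycoprotein gene, Abcb1a, moved the same way. It read 9.58, 9.18 and 8.03 in BM LT-HSC, 8.71, 8.53 and 8.98 in BM ST-HSC and 9.04, 9.07 and 8.94 in BM MPP. In FL it read 7.10, 6.74 and 6.91 in LT-HSC, 7.03, 7.15 and 7.17 in ST-HSC and 7.60, 7.66 and 7.72 in MPP. Again no BM array overlapped an FL array, although BM LT-HSC c came closest. The difference was 3.17-fold over the 3 populations (1.66 ± 0.15 log2, SE, limma adjusted p = 1.78e-07), 4.03-fold in LT-HSC (4.55e-05), 3.08-fold in ST-HSC (0.00034) and 2.56-fold in MPP (0.00245). The MPP call was lost without the 4 FL arrays described with an Ezh2 guide, where the difference was 1.30 (adjusted p = 0.247). Abcb1a and Abcb1b are close copies that neighbour each other on chromosome 5, and how far their probes share signal is uncertain.

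Abcg2, the side population pump, did not pass the test between sources. It read 10.06, 10.42 and 8.99 in BM LT-HSC, 9.68, 9.40 and 9.50 in BM ST-HSC and 8.96, 9.20 and 9.18 in BM MPP. In FL it read 9.52, 9.16 and 10.28 in LT-HSC, 9.39, 9.31 and 9.47 in ST-HSC and 9.25, 9.05 and 9.37 in MPP. BM and FL overlapped in every population, and the LT-HSC arrays were the most spread. The mean difference was 0.06 ± 0.16 log2 (SE, limma adjusted p = 0.826), with a 95% interval of -0.28 to 0.41. Without BM LT-HSC c it was 0.20 ± 0.12 over the populations (0.268) and 0.59 in LT-HSC (0.133), against 0.17 in LT-HSC with all arrays (0.842), and without FL LT-HSC c, the highest FL array at 10.28, it was 0.17 over the populations (0.487) and 0.48 in LT-HSC (0.406). With all arrays, the interval lies below the shifts of both P-glycoprotein genes. The shift of Abcb1b exceeded that of Abcg2 by 2.25 log2 and the shift of Abcb1a exceeded it by 1.60 log2, each with an exact two-sided permutation p of 0.00025 (arrays permuted within populations, n = 9 per source), the smallest the 8000 arrangements can give, and 0.000375 after adjustment over 3 pairs. Averaged over the populations, Abcb1b shifted 0.65 log2 more than Abcb1a (exact permutation p = 0.00125, adjusted 0.00125). The shifts of Abcb1b and Abcb1a were 2.86 and 2.01 in LT-HSC, 2.61 and 1.62 in ST-HSC, and nearly equal in MPP, at 1.46 and 1.36. The 3 permutation contrasts were chosen after the values were seen.

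**Figure D2:**
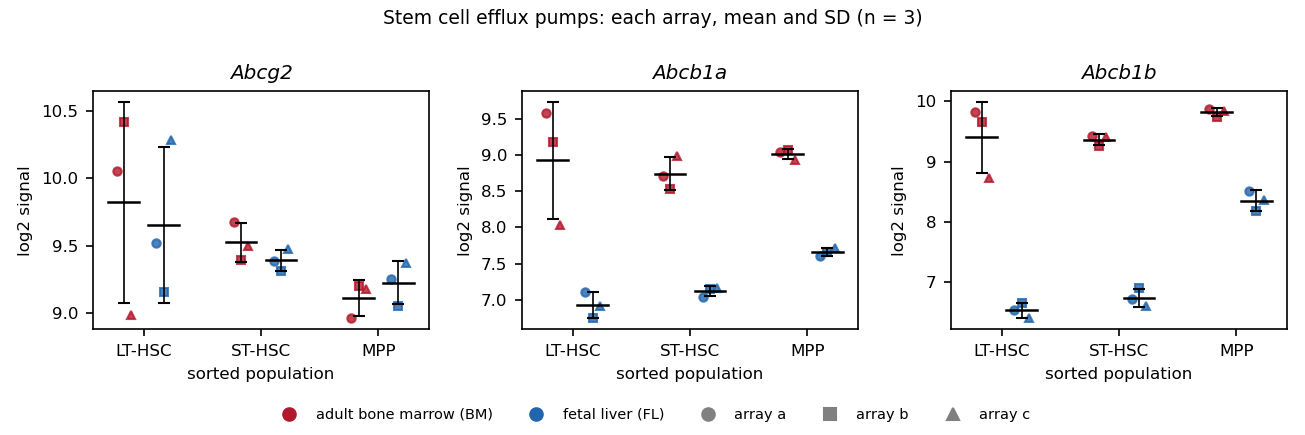
Log2 signal of Abcg2, Abcb1a and Abcb1b on each of the 18 arrays, by population, with BM left of FL and the group mean as a line with its SD as a bar. Abcb1a and Abcb1b separate BM from FL in all 3 populations, while the Abcg2 groups overlap.

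The soluble ATPases of ribosome recycling and translation included 3 of 4 genes that were lower in BM (15.9% of all genes were) and none that was higher, with a median difference of -0.35 log2 (-0.01 over all genes). Abcf2 read 9.78, 9.91 and 8.92 in BM LT-HSC, 9.75, 8.94 and 8.88 in BM ST-HSC and 10.01, 10.09 and 9.98 in BM MPP, against 10.25, 9.97 and 10.25, then 10.37, 10.43 and 10.19, then 10.65, 10.57 and 10.71 in the same populations of FL. Each BM array lay below the FL arrays of its population, and the narrow arrays were the lowest. Its difference was -0.79 ± 0.13 log2, 1.73-fold lower in BM (limma adjusted p = 0.000217), and it was -0.53 without the 4 narrow arrays (6.33e-05). In ST-HSC alone it was -1.14 ± 0.23 (adjusted p = 0.00265). Abce1, the ribosome recycling factor, was lower by -0.43 ± 0.11 (0.00938), a call lost without the narrow arrays (-0.25, 0.0739) and without the 4 arrays described with an Ezh2 guide (0.0791). Abcf1, which takes part in translation initiation, differed by -0.27 ± 0.09 (0.0333), and this call was lost without the narrow arrays (0.0733), without the arrays described with an Ezh2 guide, and without any 1 of 11 single arrays. Abcf3 had a difference of -0.19 ± 0.12 (0.285).

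**Figure D3:**
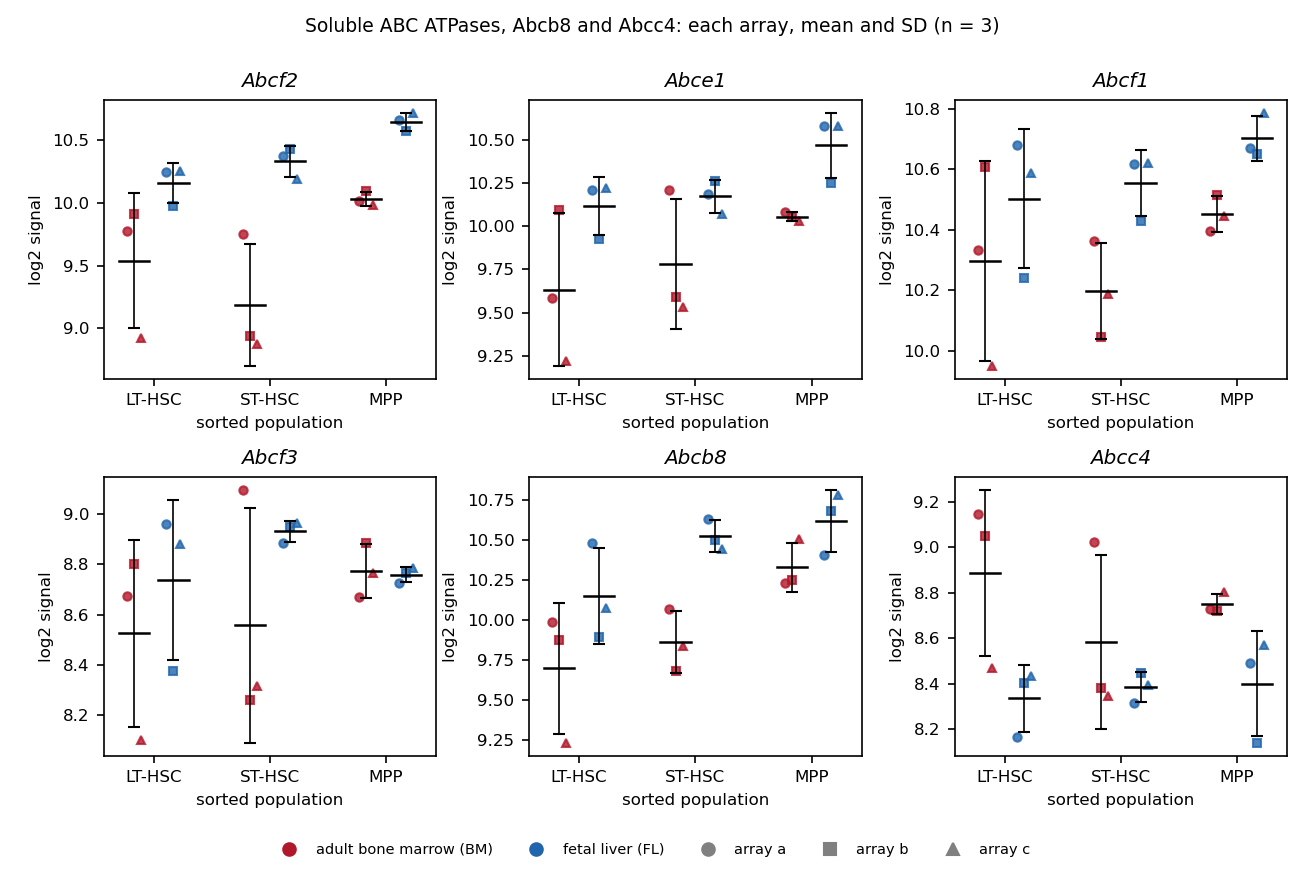
Log2 signal of Abcf2, Abce1, Abcf1, Abcf3, Abcb8 and Abcc4 on each array, by population, BM left of FL, with the group mean as a line and its SD as a bar. Abcf2 and Abcb8 are lower in BM and Abcc4 is higher, with the widest scatter in BM LT-HSC and BM ST-HSC.

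Among the mitochondrial transporters, 1 of 3 passed (25.1% of all genes did): Abcb8 was lower in BM, and Abcb10 and Abcb6 did not pass. Abcb8 read 9.99, 9.87 and 9.23 in BM LT-HSC, 10.07, 9.68 and 9.84 in BM ST-HSC and 10.24, 10.25 and 10.51 in BM MPP, against 10.48, 9.90 and 10.08, then 10.63, 10.50 and 10.44, then 10.41, 10.68 and 10.78 in the same populations of FL. BM and FL overlapped in LT-HSC and MPP but not in ST-HSC. The difference was -0.47 ± 0.11 log2 (limma adjusted p = 0.00388), and -0.36 without the narrow arrays (0.0118). Abcb6 differed by -0.32 ± 0.16 (0.153) and Abcb10 by -0.05 ± 0.21 (0.906).

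Of the 11 other multidrug and organic anion pumps, whose differences ranged from -0.23 to 0.37 log2, 2 passed (25.1% of all genes did), Abcc4 and Abcc5, both higher in BM. Abcc4, which exports cyclic nucleotides, read 9.15, 9.05 and 8.47 in BM LT-HSC, 9.03, 8.38 and 8.34 in BM ST-HSC and 8.73, 8.72 and 8.80 in BM MPP, against 8.17, 8.40 and 8.43, then 8.32, 8.45 and 8.39, then 8.49, 8.14 and 8.57 in the same populations of FL. It was higher by 0.37 ± 0.11 (limma adjusted p = 0.0187), by 0.60 without the narrow arrays (0.000122), and did not pass without the 4 arrays described with an Ezh2 guide (0.269). Abcc5, a related exporter, differed by 0.18 ± 0.06 (0.0426), a call that several alternative settings removed. Abcb4, the phospholipid transporter next to the P-glycoprotein genes on chromosome 5, differed by 0.37 ± 0.20 (0.202), and by 0.50 ± 0.12 without the narrow arrays (0.00616). Abcc1, a glutathione conjugate pump, differed by -0.23 ± 0.10 (0.112), Abcc10 by 0.12 (0.242) and Abcc6 by -0.06 (0.621).

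The 11 cholesterol and phospholipid transporters differed between sources by -0.22 to 0.23 log2. Of these 1 passed (25.1% of all genes did), Abca12 (-0.22 ± 0.07, limma adjusted p = 0.037), and it was lost under several alternatives. Those with the highest mean signal, Abca3, Abca7, Abca2 and Abcg1, differed by 0.05, 0.19, 0.08 and 0.06, none past the test with all arrays. Without the 4 narrow arrays, Abca7 (0.26 ± 0.08, 0.0282) and Abca2 (0.31 ± 0.10, 0.0355) were called higher in BM. Of the 9 Abca6-like and other ABCA genes, only Abca15 passed (-0.33 ± 0.09, 0.00935), a call lost without the 4 arrays described with an Ezh2 guide (0.121), and the 9 ranged from -0.33 to 0.40. Of the 48 genes, 18 lie among the dimmest 30% of all genes on the array, Abca12 and Abca15 among them, and whether such genes were detected was not determined. Of the 4 peroxisomal and lysosomal transporters, 0 passed in limma (25.1% of all genes did). The nearest was Abcd2, a peroxisomal fatty acid transporter, at 0.51 ± 0.21 (0.0827), and without BM LT-HSC c it was called, at 0.28 ± 0.08 (0.0118). The channel regulators Abcc8 and Abcc9 differed by 0.21 and 0.0034, neither past the test with all arrays.

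Within single populations the BM and FL contrasts called 2 ABC genes in LT-HSC (4.17% of them, against 7.66% of all genes), 9 in ST-HSC (18.8% against 18.7%) and 2 in MPP (4.17% against 5.47%). In LT-HSC and MPP these were Abcb1a and Abcb1b. Without BM LT-HSC c, 4 ABC genes were called in LT-HSC (against 8.49% of all genes). The added genes, both higher in BM, were Abcc4 (0.76, limma adjusted p = 0.0105) and Abcg3 (0.77, 0.038). In ST-HSC, Abca13 (0.83), Abcc8 (0.67), Abca17 (0.60) and Abcb9 (0.51) were also higher in BM, and Abcf2 (-1.14), Abcb8 (-0.66) and Abcd4 (-0.51) were lower. Without the 4 narrow arrays only BM ST-HSC a is left in its group, so that setting cannot judge these calls. Leaving out BM ST-HSC b alone, or BM ST-HSC c alone, kept only the calls of Abcb1a, Abcb1b and Abcf2. Abca13 was also lost without FL ST-HSC a or b. Abca17, Abcb8, Abcb9, Abcc8 and Abcd4 were each also lost without at least 1 of the FL ST-HSC arrays. Without the 4 arrays described with an Ezh2 guide, Abca17, Abcb1a, Abcb1b and Abcf2 kept their call and the other 5 lost it, with adjusted p from 0.0899 for Abcb9 to 0.244 for Abcc8.

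Along the sort from LT-HSC to MPP, few ABC genes differed. In BM, 1 of 48 was called between LT-HSC and MPP (limma, 2.08% against 4.57% of all genes) and 3 between ST-HSC and MPP (6.25% against 6.1%). Between LT-HSC and ST-HSC of BM, 0 were called (against 1.71%). Without BM LT-HSC c, 4 were called there (against 4.16% of all genes), Abca13, Abca4, Abcc8 and Abcb1a, the last at 0.64 (limma adjusted p = 0.026). In FL, 1 was called between LT-HSC and MPP (against 3.4%) and 2 between ST-HSC and MPP (4.17% against 2.26%). Between LT-HSC and ST-HSC of FL, 0 were called (against 0.559%).

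Abcg3, a G subfamily gene found in rodents, was the gene called between LT-HSC and MPP of BM. It read 8.37, 8.72 and 7.68 in BM LT-HSC, 8.43, 7.91 and 8.05 in BM ST-HSC and 7.11, 6.73 and 7.06 in BM MPP. All stem cell arrays were above all MPP arrays in BM. It was 2.44-fold higher in LT-HSC than in MPP (1.29 ± 0.24 log2, limma adjusted p = 0.00366), a call lost when only those groups were fitted (0.0601), and 1.16 ± 0.24 higher in ST-HSC (0.00866), a call lost without BM MPP b (0.0614). In FL it read 7.81, 8.03 and 7.49 in LT-HSC, 7.81, 7.76 and 7.84 in ST-HSC and 7.48, 7.50 and 6.73 in MPP, and no FL contrast passed. Abca17 (0.62) and Abcf2 (-0.84) also differed between ST-HSC and MPP of BM. Both calls were lost without any 1 of BM ST-HSC b or c or BM MPP a, b or c. That of Abcf2 was also lost without the 4 arrays described with an Ezh2 guide (0.11).

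In FL the clearest difference was Abcb1b itself, 3.52-fold lower in LT-HSC than in MPP (-1.82 ± 0.20 log2, limma adjusted p = 1.86e-05) and -1.60 ± 0.20 in ST-HSC against MPP (0.000188, and 0.117 without the 4 arrays described with an Ezh2 guide). In BM the same contrasts were -0.41 ± 0.20 (0.31) and -0.45 (0.184). The BM minus FL difference of the LT-HSC to MPP contrast was 1.40 ± 0.28 (adjusted p = 0.0275), and 1 of 48 ABC genes was so called, against 0.543% of all genes. This call was lost when only the groups compared were fitted (0.111), without the 4 arrays described with an Ezh2 guide (0.649), and without any 1 of FL MPP a or c, FL LT-HSC a or c, BM MPP a, b or c, or BM LT-HSC b. The summed T and NK marker signal was also highest in MPP within each source. It ran from 11.81 to 11.92 in BM MPP and from 10.52 to 10.88 in FL MPP. Most of this sum was Nkg7, which averaged 10.91 in BM and 9.25 in FL. Cd3e, Gzma and Klrd1 averaged 6.82, 6.60 and 6.37 in BM, each highest on BM LT-HSC c. In FL they averaged 6.36, 5.95 and 6.41, and only Klrd1 was highest on an MPP array. The part of these markers was not tested. For Abcb1a, the BM minus FL difference of LT-HSC minus MPP was 0.65 (limma adjusted p = 0.852). Without BM LT-HSC c it was called, at 1.10 ± 0.21 (0.00835), when 2 ABC genes were so called, against 1.18% of all genes. For LT-HSC against ST-HSC, 0 ABC genes were called as differing between the sources (limma, against 0.379% of all genes). Without BM LT-HSC c, 4 were called (against 2.65% of all genes), Abcb1a among them at 0.84 (0.0415).

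Abca1, the cholesterol exporter, was higher in ST-HSC than in MPP of FL, reading 8.29, 7.87 and 8.21 against 7.24, 6.78 and 6.96. These arrays did not overlap, and the difference was 1.13 ± 0.20 (limma adjusted p = 0.00472), a call lost without the 4 arrays described with an Ezh2 guide (0.281). Abcb1a differed by -0.74 ± 0.26 between LT-HSC and MPP of FL (0.148), and by -0.65 without the narrow arrays (0.00554). Abcg2 differed by 0.71 ± 0.28 log2 between LT-HSC and MPP of BM (adjusted p = 0.201) and by 0.43 ± 0.28 in FL (0.57), where it was 0.11 without FL LT-HSC c (0.913). Without BM LT-HSC c, which read 8.99, the BM difference was 1.12 ± 0.23 (0.00438), and without the 4 narrow arrays it was 1.12 in BM (0.00115) and 0.67 in FL (0.0453). Abcd2, picked after its values were seen, was 7.73, 7.84 and 9.90 in BM LT-HSC against 9.25, 9.37 and 9.12 in BM MPP, and without the array at 9.90 its difference was -1.46 ± 0.14 (2.38e-06).

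**Figure D4:**
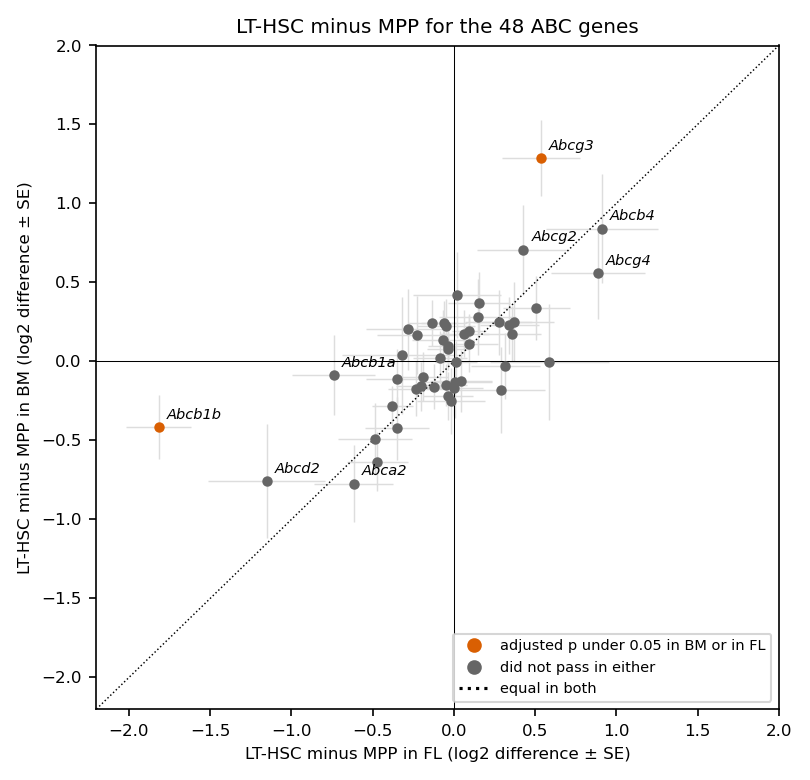
LT-HSC minus MPP difference (log2, with its standard error) of each of the 48 ABC genes, in BM on the vertical axis and in FL on the horizontal axis, with a dotted line where both are equal. Abcg3 is the highest called in BM at 1.29 and Abcb1b the lowest in FL at -1.82.

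Genes that regulate or partner the transporters were measured for 25 of the 29 on the list, and 9 differed between BM and FL (36%, against 25.1% of all genes). Pim1, a kinase that phosphorylates Abcg2, was 1.11 ± 0.14 higher in BM (limma adjusted p = 1.46e-05), and Tapbp (0.39), Ezr (0.28) and Mylip (0.22) were higher too. Hif1a, the hypoxia factor, was lower by -0.57 ± 0.11 (0.000725), with Rdx (-0.38), a linker of membrane proteins to actin, Ahr (-0.36), Msn (-0.32) and Arnt (-0.26). Along the sort, Apoe, the lipid carrier that Abca1 loads, was higher in LT-HSC than in MPP by 0.65 in BM and 1.06 in FL, and Epas1 by 1.01 in BM and 0.52 in FL. Nr1h3, the oxysterol receptor that induces Abca1, was 0.83 higher in LT-HSC than in MPP of BM. Tap1 and Tap2, ABC peptide transporters of antigen presentation whose symbols fall outside the rule, were 1.19 ± 0.09 and 1.16 ± 0.09 higher in BM (2.23e-08 and 6.02e-08).

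The genes whose levels over the 18 arrays were most like each pump were listed by Pearson correlation as a description, since the arrays share their source and population. Abcb1a and Abcb1b were each among the 5 most like the other, at 0.957, and Rabgap1l (0.951 and 0.979) and Ggt5 (0.951 and 0.961) were like both. Foxred2 (0.959) and Ndrg1 (0.954) completed the Abcb1a list, and H2-DMa (0.953) and Ninj1 (0.950) the Abcb1b list. The genes most like Abcg2 were Sorbs2 and Stxbp2 (0.884 each), St3gal1 (0.866), Zfpm1 (0.853) and Kcnk5 (0.845).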

How the data were processed

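Expression was measured on 18 Clariom S arrays. The authors deposited 1 table of log2 signal for 22203 probe sets; the submitters' processing notes name R 3.5.01 and oligo, and the background correction, normalization and summarization behind it were not stated in any source read here. Probe sets with 1 gene symbol were kept, the one with the highest mean per symbol, which left 19505 genes. limma 3.58.1 in R 4.3.3 fitted the 6 group means (12 residual degrees of freedom), and 12 contrasts were tested with Benjamini-Hochberg adjustment over all genes, called at an adjusted p under 0.05. Whether arrays of 1 group stem from different animals is not labelled, and p-values therefore cover only the spread between these samples, which may be technical, with 3 arrays per group limiting the precision. The fit was tested on simulated data. Named in the text are the 3 pumps, called members of each contrast, members of each role list with the highest mean signal, called partners and regulators, sort markers and the 5 genes most like each pump; exceptions are stated. Members and lists were chosen with earlier results of these data known. Whether replicate letters pair the arrays is not labelled, and the main fit treated them as unpaired. Deviations of arrays with the same letter correlated at -0.46 to 0.53 (median -0.03, 45 pairs). Those with different letters correlated at -0.61 to 0.55 (median 0.02, 90 pairs). With 3 arrays per group this cannot exclude a pairing. Alternatives changed the normalization, filters, weights, variance model, block and arrays; leaving out BM LT-HSC c was also singled out after seeing the data.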

Additional observations from a re-analysis of the deposited data

Results flagged for a closer look

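For Abcb1b, the LT-HSC minus MPP difference was -0.41 log2 in BM and -1.82 log2 in FL, and the difference between these, 1.40 ± 0.28 (SE, limma adjusted p = 0.0275), passed the test of the difference itself. It was 1.74 without BM LT-HSC c (7.96e-05) and 1.80 without the 4 narrow arrays (0.000141). The call was lost when only the groups compared were fitted (0.111), without the 4 arrays described with an Ezh2 guide (0.649), and without any 1 of FL MPP a or c, FL LT-HSC a or c, BM MPP a, b or c, or BM LT-HSC b.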

How the results depend on the processing

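With array weights, 16 ABC genes were called for BM minus FL over the populations (37.2% of all genes were). By population the counts were 4 in LT-HSC (8.9%), 22 in ST-HSC (45.3%) and 7 in MPP (18.5%). In BM they were 4 for LT-HSC minus MPP (8.82%), 11 for LT-HSC minus ST-HSC (25.3%) and 21 for ST-HSC minus MPP (39.2%). In FL they were 6 for LT-HSC minus MPP (7.58%) and 5 for ST-HSC minus MPP (8.98%). For the BM minus FL differences they were 2 for LT-HSC minus MPP (1.71%) and 8 for LT-HSC minus ST-HSC (11.1%). The setting without the 4 narrow arrays leaves only BM ST-HSC a in its group. The setting without the 4 arrays described with an Ezh2 guide leaves 1 FL MPP array. Each is assumed to vary like the other groups, so counts are not given for these settings. Without the narrow arrays, the calls and the share of all genes rose in most contrasts. Over the populations that setting added Abca2, Abca7, Abcb4, Abcc9, Abcc12 and Abcg3 and dropped Abca12, Abcc5, Abce1 and Abcf1. Without the arrays described with an Ezh2 guide, calls of ABC genes fell or stayed equal, and the share of all genes fell in every contrast. With only the groups compared, the counts were 6 in MPP (14.2% of all genes) and 0 for LT-HSC minus MPP in BM (1.31%). Within FL they were 5 for LT-HSC minus MPP (4.45%) and 5 for ST-HSC minus MPP (4.94%). The LT-HSC minus MPP difference had 0 (0.277%). A fold of at least 2 left 2 over the populations (2.27% of all genes). It left 3 in ST-HSC and 1 for ST-HSC minus MPP in BM, where the share of all genes is not given. Median centring gave 2 for LT-HSC minus MPP in BM (5.07%). Leaving out 1 array gave 2 to 4 in LT-HSC and 3 to 14 in ST-HSC. Within BM it gave 1 to 3, 0 to 4 and 0 to 6 for the 3 contrasts in the order above. It gave 1 to 3 for LT-HSC minus MPP in FL. The LT-HSC minus MPP difference had 0 to 2 and the LT-HSC minus ST-HSC difference 0 to 4. For these ranges the share of all genes is given only without BM LT-HSC c. It was then 8.49% in LT-HSC. In BM it was 5.67% for LT-HSC minus MPP and 4.16% for LT-HSC minus ST-HSC. For the differences it was 1.18% for LT-HSC minus MPP and 2.65% for LT-HSC minus ST-HSC. The replicate block gave 9 over the populations (24.9% of all genes) and 2 for ST-HSC minus MPP in BM (5.99%). It lost Abcc5 (limma adjusted p = 0.0568) and Abca17 (0.0613), and changed no other count. The cause of these changes was not tested.

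Among the pumps and the called members, signs turned only for pump values that had not passed. Other members near 0 turned too: over the populations, Abca4 was -0.03 with all arrays and 0.09 without BM LT-HSC c, and Abcc9 was 0.0034 and -0.10. Abcg2 over the populations was -0.0098 without the 4 arrays described with an Ezh2 guide and -0.037 to 0.20 with 1 array left out, and in LT-HSC -0.13 to 0.59. Its LT-HSC minus ST-HSC contrast ran from -0.0026 to 0.71 in BM and -0.054 to 0.51 in FL. Its LT-HSC minus MPP difference between sources ran from -0.019 to 0.70, and its LT-HSC minus ST-HSC difference from -0.26 to 0.45, with -0.11 after repeated quantile normalization and -0.030 without the 4 arrays described with an Ezh2 guide. Abcb1a, LT-HSC minus MPP in BM, was 0.31 with array weights, 0.37 without the narrow arrays and -0.41 to 0.37 with 1 array left out, and its LT-HSC minus ST-HSC contrast in BM -0.14 to 0.64. Abcb1b, LT-HSC minus ST-HSC in BM, was -0.051 after repeated quantile normalization and -0.17 to 0.37 with 1 array left out.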
